A study of Rattus norvegicus with 43 samples.

Results

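Gene expression was compared between A7r5 cells kept for 7 days in folate-deficient medium with 2.5 ng/ml folic acid and A7r5 cells kept for 7 days in folate-excess medium with 100 ng/ml. A7r5 is a clonal smooth muscle line from rat aorta, and every culture was grown in a custom-made DMEM. The members were chosen by the day and the folic acid dose in the array titles, which gave 4 deficient and 4 excess arrays, or 8 of the 43 arrays of the experiment. The titles number the deficient arrays as replicates 1, 2, 5 and 6 and the excess arrays as replicates 1, 3, 4 and 6. Beside them stood 5 arrays of day 7 in sufficient medium with 10 ng/ml, and the same deficient and excess media at days 14 and 21 with 10 arrays each day. Total RNA was read with Affymetrix rat arrays, whose probe sets measure mostly the 3′ ends of transcripts. Whether the replicates came from separate cultures is not stated in the labels. Each p-value of a gene therefore rests on a spread between arrays that may be technical. In the main fit that spread was pooled over the groups of all 43 arrays, not taken from the 8 arrays alone.

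Folate carries the one-carbon units that cells use to make thymidylate and purines and to remethylate homocysteine to methionine. The supply of these units is therefore tied to DNA synthesis, to methylation and to the serine and glycine pathways of the mitochondria. A shortage of amino acids or of their charged tRNAs is known to raise translation of the transcription factor ATF4, which turns on amino acid transporters, aminoacyl-tRNA synthetases and mitochondrial folate enzymes in the integrated stress response.

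Most defining markers of smooth muscle were high on these arrays. Acta2, the actin of smooth muscle, stood at 14.36 (mean log2 expression) in deficient and 14.13 in excess medium, and Tagln, an actin-binding protein of smooth muscle, at 14.19 and 14.02. Myh11, the smooth muscle myosin heavy chain, stood far lower, at 5.45 in deficient and 5.37 in excess medium. Of the 9 smooth muscle markers on the array all were measured, and 2 were higher in deficient medium, against 4.04% of all genes. Of the fibroblast markers, Thy1 stood at 9.97 in deficient and 9.86 in excess medium and Pdpn at 8.83 and 8.79, while Pdgfra, Dcn and Lum lay below 3 on the log2 scale in all 8 arrays, close to background. The defining markers of endothelium, epithelium, macrophages and adipocytes, among them Pecam1, Epcam, Ptprc and Adipoq, also lay below 3 in all 8 arrays, except Krt14, Vwf, Csf1r and Tek, whose highest values were 4.26, 4.12, 3.42 and 3.29. Of the larger marker lists, 5 fibroblast, 3 endothelial, 2 epithelial and 1 macrophage gene were measured and 0 of them passed the test. In such bulk RNA, fewer cells of a type and less RNA per cell cannot be told apart.

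One array stood apart within its group. Excess replicate 6 correlated with the other 7 arrays at 0.9947 to 0.9952 across all 31099 probe sets, while all other pairs reached at least 0.9960. Its correlation with replicate 6 of sufficient medium, the neighbouring serial number in the titles, was 0.9973. The excess of 3′ over 5′ beta-actin signal, a sign of RNA quality, averaged 1.90 ± 0.10 (log2, SD, n = 4) in deficient and 1.71 ± 0.16 (n = 4) in excess arrays, with a two-sided exact permutation p of 0.0857, where the smallest possible p is 0.0286. The same measure of Gapdh was 0.37 and 0.35, and its exact p was 0.943. With the beta-actin measure as a covariate, 365 genes were higher and 126 lower in deficient medium, against 367 and 88 without it.

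In all, 455 of 9093 genes differed at an adjusted p below 0.05 in limma, which is 5.00% of the genes tested. Of these, 367 (4.04%) were higher and 88 (0.968%) were lower in deficient medium. Most differences were small: their median size was 0.40 on the log2 scale, 55 genes reached 1.5-fold (38 higher and 17 lower), and 1 gene, Mgp, reached 2-fold. The 4 deficient and the 4 excess values did not overlap in 359 of the 455 genes, against 1273 of all genes (14.0%). The median difference of all genes was 0.06, so the split between higher and lower calls depended on the scale. When each array was centred on its own median, 153 genes were higher and 179 lower, and after a further quantile normalization 208 were higher and 111 lower. Without excess replicate 6 the counts were 507 higher and 104 lower, with 370 of the 455 genes among them. Of the 455 calls, 126 held in all 8 fits that left out 1 array in turn.

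**Figure D1:**
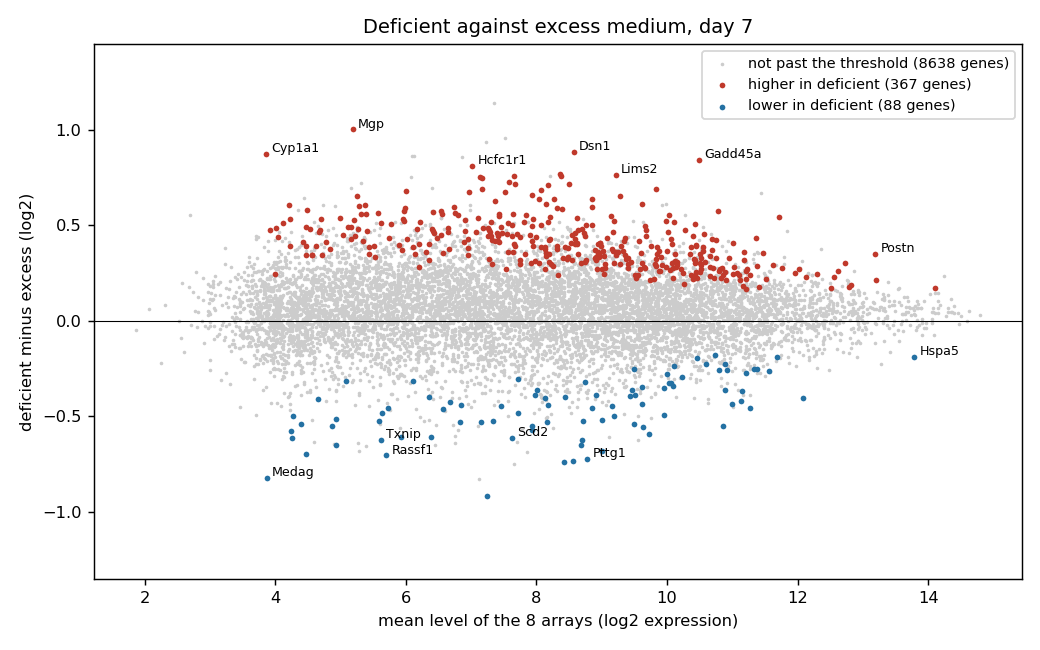
Difference between deficient and excess medium at day 7 (log2, vertical axis) against the mean level over the 8 arrays (log2 expression, horizontal axis), 1 point per gene, with red for the 367 higher and blue for the 88 lower genes. Mgp, at 1.00, has the highest called difference, and the called genes are spread over the whole range of levels.

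The genes that stood highest in deficient medium came from several unrelated functions. Mgp, which encodes matrix Gla protein, an inhibitor of vascular calcification, read 5.35, 5.80, 5.79 and 5.82 in the deficient arrays, against 4.16, 4.68, 5.21 and 4.70 in the excess arrays. Every deficient array lay above every excess array, and the difference of 1.00 ± 0.14 (SE) was 2.00-fold at an adjusted p of 2.8e-05. Its level in both media is low, so the fold is inexact.

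Dsn1, a subunit of the kinetochore complex that attaches chromosomes to the spindle, read 8.99, 8.90, 9.16 and 9.02 in deficient arrays, against 8.17, 7.99, 8.13 and 8.23 in excess arrays. The gap between the groups was several times the spread within either, and the difference was 0.89 ± 0.11 (1.85-fold, adjusted p = 1.7e-05). Cyp1a1, the aryl hydrocarbon receptor target that oxidizes xenobiotics, read 4.18, 4.13, 4.36 and 4.50 in deficient arrays, against 3.36, 3.19, 3.34 and 3.80 in excess arrays. The excess values of Cyp1a1 sit under the filter limit of 4, near background, and the difference was 0.87 ± 0.12 (adjusted p = 2.8e-05).

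Gadd45a, a growth arrest gene induced by DNA damage and by ATF4, read 10.70, 10.91, 11.13 and 10.93 in deficient arrays, against 9.84, 9.80, 10.14 and 10.50 in excess arrays. The groups did not overlap, although excess replicate 6 came close to the lowest deficient array, and the difference was 0.84 ± 0.16 (1.80-fold, adjusted p = 0.0015). Lims2, an adaptor of integrin adhesions, read 9.60, 9.68, 9.52 and 9.59 in deficient arrays, against 8.74, 8.94, 8.75 and 8.91 in excess arrays. Its SD was 0.06 in deficient and 0.10 in excess arrays, and the difference was 0.76 ± 0.10 (1.70-fold, adjusted p = 1.7e-05). Rhbdd1, a rhomboid protease, differed by 0.77 ± 0.14, but its other probe set pointed the opposite way, and with both averaged its call was lost (adjusted p = 0.37). Hcfc1r1, Homer3 and Tbc1d9b differed by 0.81, 0.76 and 0.76, and each lost its call in at least 1 fit that left out an array, with a highest adjusted p of 0.11 (without deficient replicate 2), 0.056 (without deficient replicate 5) and 0.051 (without deficient replicate 6).

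Among the genes lowest in deficient medium, Medag, an adipogenesis gene, read 3.57, 3.45, 3.51 and 3.29 in deficient arrays, against 4.65, 4.24, 3.87 and 4.36 in excess arrays. Its deficient values lie under the filter limit, and the difference was -0.82 ± 0.16 (adjusted p = 0.002). Znrf3, a ubiquitin ligase that removes Wnt receptors, differed by -0.74 ± 0.13 and Hira, a histone H3.3 chaperone, by -0.74 ± 0.16. Rassf1, a scaffold that binds Ras and microtubules, fell by 0.70 ± 0.14, Chac2, a glutathione-degrading enzyme, by 0.68 ± 0.15 and Sik1, a salt-inducible kinase, by 0.65 ± 0.13. Scd2, a stearoyl-CoA desaturase, read 7.52, 7.28, 7.19 and 7.25 in deficient arrays, against 8.04, 7.90, 8.18 and 7.58 in excess arrays. It was lower in each deficient array than in any excess array, by -0.61 ± 0.10 (1.53-fold lower, adjusted p = 0.00028). Pik3ca, Rps6ka6 and Hdac8 differed by -0.65, -0.62 and -0.61, and each lost its call in at least 3 of 8 fits that left out 1 array; 1 of 6 probe sets of Pik3ca had the opposite sign.

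**Figure D2:**
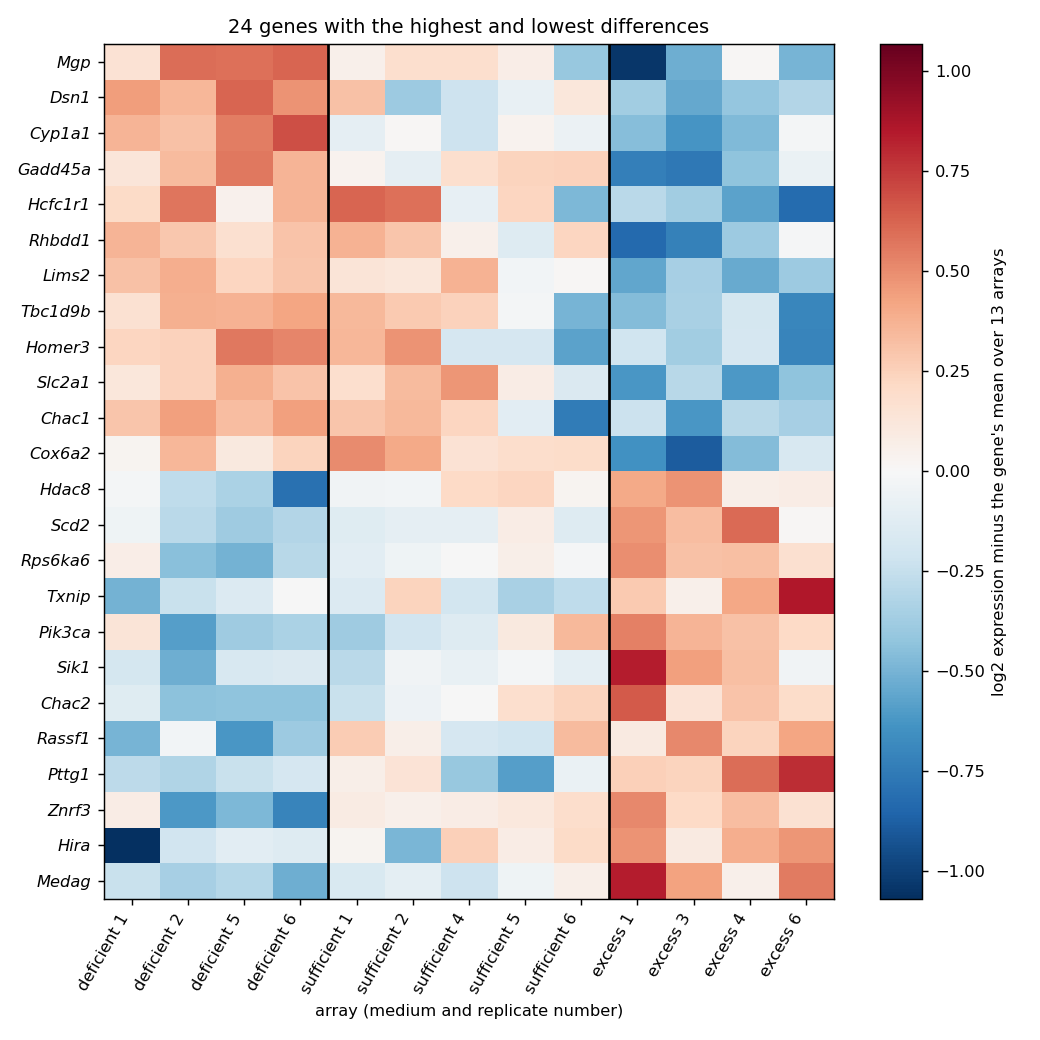
Log2 expression of the 12 highest and 12 lowest called genes with non-overlapping groups, shown as the difference from each gene's mean over the 13 arrays of day 7, with deficient, sufficient and excess arrays from left to right. These genes were chosen for the contrast between the outer blocks, which favours intermediate colours in the block between them. The sufficient arrays carry such colours for most of these genes. The sufficient arrays entered that choice only through the filter, the choice of probe set and the shared estimate of spread.

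Of 18 measured genes of folate transport and the folate cycle, 1 was higher in deficient medium and 0 were lower. That is 5.56%, near the 5.00% of all genes, and the median difference was 0.08 against 0.06 for all genes. The 1 gene was Mthfd2, the mitochondrial dehydrogenase and cyclohydrolase of the folate cycle. It read 8.82, 9.30, 9.35 and 9.11 in deficient arrays, against 8.43, 8.35, 8.55 and 8.86 in excess arrays. Deficient replicate 1 and excess replicate 6 overlapped, and the difference was 0.60 ± 0.15 (1.51-fold, adjusted p = 0.017). It lost its call in 4 fits that left out an array (deficient replicate 2 or 5, excess replicate 1 or 3), with a highest adjusted p of 0.082.

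The other enzymes and carriers of the pathway did not pass. Tyms, thymidylate synthase, read 6.72, 6.64, 6.64 and 6.60 in deficient arrays, against 6.19, 5.63, 6.57 and 6.66 in excess arrays. The deficient arrays were close together while the excess arrays spanned 1 log2 unit, and the difference of 0.39 ± 0.16 had an adjusted p of 0.15. Shmt2 and Shmt1, the mitochondrial and cytosolic serine hydroxymethyltransferases, differed by 0.27 ± 0.15 and 0.22 ± 0.10 (adjusted p = 0.27 and 0.2). Slc19a1, the reduced folate carrier, differed by 0.09 ± 0.12, Mthfd1, the cytosolic trifunctional enzyme, by 0.06 ± 0.08 and Mtrr, which reactivates methionine synthase, by -0.03 ± 0.12. Folr1, the folate receptor, stood at 3.72 in deficient and 3.92 in excess medium, near background in both, and Mtr, methionine synthase, lay below the filter. In the methionine cycle, 2 of 21 genes were higher and 0 lower (9.52%). They were Mat1a, the liver form of the S-adenosylmethionine-forming enzyme, by 0.36 ± 0.10, and Odc1, which makes putrescine, by 0.23 ± 0.06; Mat1a lost its call without any 1 of 5 arrays and Odc1 without any 1 of 4. Of 25 purine and pyrimidine synthesis genes 0 passed in limma, and the member with the smallest p, Ppat, differed by -0.64 ± 0.26 (adjusted p = 0.14).

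Genes of the integrated stress response and of amino acid supply had 42 measured members. Of these 11 were higher in deficient medium and 0 lower, which is 26.2% against 5.00% of all genes, and the median was 0.20 against 0.06. Trib3, a pseudokinase that restrains ATF4, read 9.59, 9.68, 9.59 and 9.54 in deficient arrays, against 9.10, 8.63, 9.18 and 8.88 in excess arrays. The difference was 0.65 ± 0.15 (1.57-fold, adjusted p = 0.0075), and no deficient array reached down to an excess array. Chac1, which degrades glutathione and is a target of ATF4, read 7.46, 7.60, 7.49 and 7.60 in deficient arrays, against 6.94, 6.54, 6.86 and 6.81 in excess arrays. It stood 1.68-fold higher, by 0.75 ± 0.15 (adjusted p = 0.0026).

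Slc3a2, the heavy chain of several amino acid exchangers, differed by 0.41 ± 0.07 (adjusted p = 0.00066), the smallest p of the list. Ddit3, which encodes the stress transcription factor CHOP, read 8.99, 9.26, 8.88 and 8.90 in deficient arrays, against 8.49, 8.36, 8.50 and 8.68 in excess arrays. Its difference was 0.50 ± 0.12 (adjusted p = 0.011), and the call was lost without deficient replicate 2 (adjusted p = 0.063). The remaining called members, taken from the list after their values were seen, were Atf4 itself by 0.27 ± 0.07, the translational repressor Eif4ebp1 by 0.51, the growth factor Vegfa by 0.36, Mthfd2, and the aminoacyl-tRNA synthetases Mars1, Gars1 and Tars1 by 0.31, 0.29 and 0.28. Each of these 7 lost its call in 4 to 6 of the 8 fits that left out an array. Asns, asparagine synthetase, differed by 0.22 ± 0.08 (adjusted p = 0.1) and Psat1, of serine synthesis, by 0.04 ± 0.07. The count of 11 was 4 without deficient replicate 2 or without excess replicate 1, and 5 without deficient replicate 5 or 6 or without excess replicate 3. It was 11 without excess replicate 6, 5 after centring on the array median, and 4 when the 8 arrays alone were fitted. Of all 9093 genes, these fits called 241, 218, 209, 236, 263, 611, 332 and 198 in the same order.

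**Figure D3:**
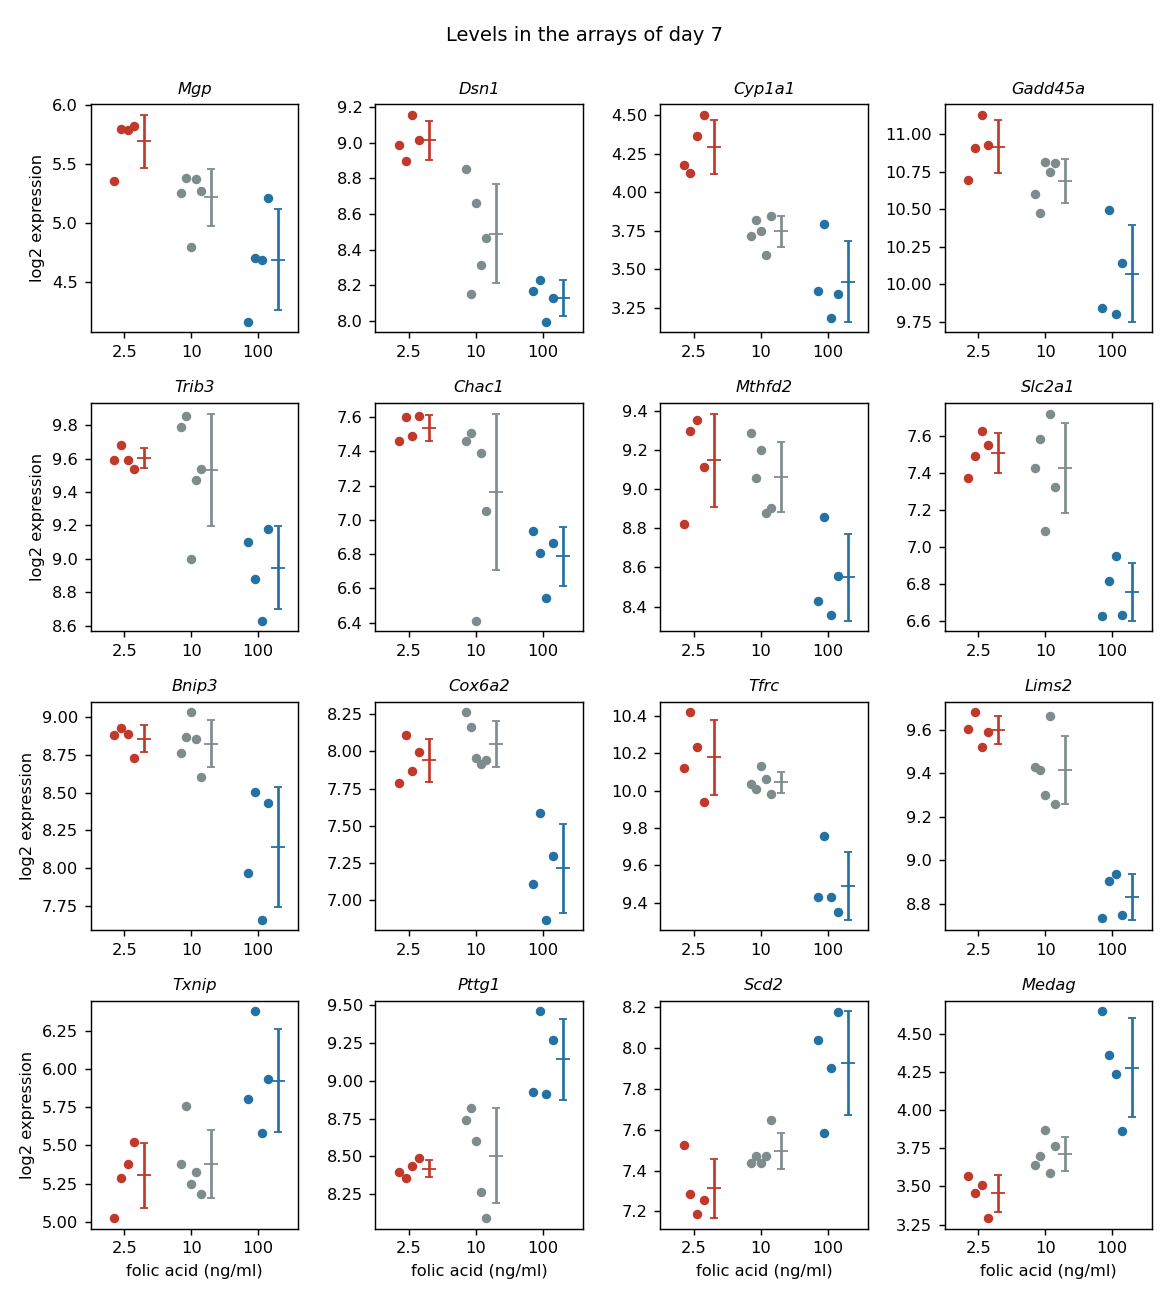
Log2 expression of 16 genes in each array of day 7 at 2.5, 10 and 100 ng/ml folic acid, with points for arrays and bars for the mean and SD of each medium. In Mgp, Dsn1 and Cyp1a1 the sufficient mean lies between the outer media, while in Bnip3, Cox6a2 and Trib3 it lies close to the deficient mean.

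Of 41 measured genes of glucose use and of the response to low oxygen, 7 were higher and 1 lower, which is 19.5% against 5.00% of all genes, and the median was 0.25 against 0.06. Many of them are known targets of the hypoxia-inducible factors. Slc2a1, the glucose transporter GLUT1, read 7.37, 7.49, 7.63 and 7.55 in deficient arrays, against 6.63, 6.95, 6.64 and 6.82 in excess arrays. The gap between the groups exceeded the spread within them, at 0.75 ± 0.12 (1.68-fold, adjusted p = 0.00019). Bnip3, a mitophagy receptor, read 8.89, 8.93, 8.89 and 8.73 in deficient arrays, against 7.97, 7.66, 8.43 and 8.50 in excess arrays. Its excess arrays varied far more than its deficient arrays, and the difference was 0.72 ± 0.11 (1.65-fold, adjusted p = 9.9e-05).

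Pfkp, the platelet form of phosphofructokinase, read 8.21, 8.69, 8.68 and 8.55 in deficient arrays, against 7.50, 7.63, 7.92 and 8.24 in excess arrays. Here excess replicate 6 lay just above deficient replicate 1, and the difference was 0.71 ± 0.13 (adjusted p = 0.00075). Pdk1, a kinase that inhibits pyruvate dehydrogenase, differed by 0.45 ± 0.10, Car9, a carbonic anhydrase, by 0.50 ± 0.12, and Ndrg1, a stress gene near background, by 0.39 ± 0.11. Ldha and Pgk1, enzymes of glycolysis at high levels in both media, differed by 0.14 ± 0.05 and 0.12 ± 0.04 and did not pass (adjusted p = 0.099 and 0.078). The exception in direction was Adm, the vasodilator peptide adrenomedullin, which read 5.30, 5.34, 5.22 and 5.44 in deficient arrays, against 5.65, 5.77, 5.83 and 6.15 in excess arrays, a difference of -0.52 ± 0.11 (adjusted p = 0.0039). Pdk1, Car9, Ndrg1, Vegfa, Ldha and Pgk1 were named after their values were seen, and Vegfa belongs to both this and the stress response list. Ndrg1 and Vegfa lost their calls in 4 and 5 of the 8 fits that left out an array, and Car9 without deficient replicate 2 (adjusted p = 0.052). The list held 4 higher genes without deficient replicate 2, 10 without excess replicate 6, and 4 when the 8 arrays alone were fitted. Those fits called 241, 611 and 198 of all 9093 genes.

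Promoters of 3 genes of these lists are shown because each holds the motif by which the list's known regulators bind DNA, and the promoter of Pttg1 because it holds the cell cycle motif of the list described after them. They run from 250 bases before to 50 after the annotated start (RefSeq, GRCr8 assembly), with the motif in capitals. Bnip3 lies at chr1:203154913-203155212 (minus strand), Slc2a1 at chr5:138002272-138002571 (plus strand), Chac1 at chr3:126795881-126796180 (plus strand) and Pttg1 at chr10:28406277-28406576 (minus strand).
Bnip3: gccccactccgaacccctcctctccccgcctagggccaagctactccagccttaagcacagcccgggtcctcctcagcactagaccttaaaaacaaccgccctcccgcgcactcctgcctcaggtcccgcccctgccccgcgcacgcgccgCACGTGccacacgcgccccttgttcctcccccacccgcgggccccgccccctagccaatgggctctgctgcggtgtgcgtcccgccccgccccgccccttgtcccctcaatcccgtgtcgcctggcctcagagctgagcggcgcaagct
Slc2a1: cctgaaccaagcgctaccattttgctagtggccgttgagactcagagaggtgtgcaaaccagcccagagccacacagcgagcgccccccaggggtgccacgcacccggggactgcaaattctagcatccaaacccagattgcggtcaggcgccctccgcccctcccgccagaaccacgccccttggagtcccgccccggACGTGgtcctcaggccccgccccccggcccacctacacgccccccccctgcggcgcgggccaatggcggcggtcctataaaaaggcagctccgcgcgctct
Chac1: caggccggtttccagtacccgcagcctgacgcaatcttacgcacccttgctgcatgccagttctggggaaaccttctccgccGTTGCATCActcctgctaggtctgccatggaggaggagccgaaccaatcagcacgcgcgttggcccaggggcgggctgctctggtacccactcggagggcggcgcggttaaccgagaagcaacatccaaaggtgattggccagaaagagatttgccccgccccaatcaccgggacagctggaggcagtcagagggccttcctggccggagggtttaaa
Pttg1: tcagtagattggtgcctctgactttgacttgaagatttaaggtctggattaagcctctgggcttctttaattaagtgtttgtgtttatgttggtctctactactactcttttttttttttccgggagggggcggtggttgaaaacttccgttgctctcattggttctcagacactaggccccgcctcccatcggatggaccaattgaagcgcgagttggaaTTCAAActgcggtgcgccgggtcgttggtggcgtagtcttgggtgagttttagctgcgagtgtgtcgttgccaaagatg
In Bnip3 the core of the hypoxia response element, ACGTG, was found on both strands in an overlapping pair, at -99 and -98 from the start, and in Slc2a1 at -51. ACGTG on either strand occurred in 4 of 7 called genes of the hypoxia list that had a promoter, in 26.8% of the tested genes and in 19.7% of 27457 promoters. The element bound by ATF4 with C/EBP factors, TGATGNAAN, was found on the minus strand of Chac1 at -168 and not in the window of Slc3a2. It occurred in 4 of 9 called stress response genes with a promoter, in 1.87% of the tested genes and in 3.80% of all promoters. The cell cycle homology region TTTGAA stood on the minus strand of Pttg1 at -29 and not in the window of Dsn1. It occurred in 3 of 5 called mitosis genes and in 11.4% of the tested genes, against 18.1% of all promoters. A match describes the letters of the window and says nothing of whether a factor was bound in these cells.

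Muscle genes that passed were higher in deficient medium, with 1 exception. Of 27 smooth muscle contractile genes 5 were higher and 0 lower, which is 18.5% against 5.00% of all genes, and the median was 0.19 against 0.06. The differences were small on genes of high level: Myl9, the regulatory light chain, by 0.21 ± 0.05, Cnn1, calponin, by 0.21 ± 0.06, Mylk, the light chain kinase, by 0.31 ± 0.08, Tagln by 0.17 ± 0.05, and Srf, the transcription factor of contractile genes, by 0.26 ± 0.07. After centring on the array median 0 of the 27 passed in limma, with an adjusted p of 0.11 for Myl9. Without deficient replicate 5, or when the 8 arrays alone were fitted, 1 passed. These fits called 332, 209 and 198 of all 9093 genes. The other probe set of Mylk had the opposite sign. Acta2 read 14.33, 14.34, 14.38 and 14.40 in deficient arrays, against 14.28, 14.32, 14.33 and 13.58 in excess arrays. Excess replicate 6 was apart from the other 7 arrays, and Acta2 did not pass (adjusted p = 0.48). Myocd, the coactivator of Srf, stood at 9.28 in deficient and 9.55 in excess medium, a difference of -0.27 ± 0.12 that did not pass.

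Of 32 measured genes of skeletal and cardiac muscle 7 were higher and 1 lower, which is 25.0% against 5.00% of all genes, and the median was 0.21 against 0.06. Cox6a2, a cytochrome oxidase subunit found in striated muscle, read 7.79, 8.11, 7.87 and 8.0 in deficient arrays, against 7.11, 6.87, 7.30 and 7.58 in excess arrays. The groups did not overlap, and the difference was 0.73 ± 0.11 (1.65-fold, adjusted p = 9.9e-05). Casq1, the calcium store of the sarcoplasmic reticulum, read 7.11, 7.15, 7.20 and 7.21 in deficient arrays, against 6.60, 6.65, 6.61 and 6.70 in excess arrays. Both groups were tight, and the difference was 0.53 ± 0.09 (adjusted p = 0.00065). Atp2a1, the calcium pump of fast muscle, differed by 0.61 ± 0.12 near background, and Myom1, of the sarcomere M band, by 0.65 ± 0.15. Myh1, a fast myosin heavy chain, Tnnc1 and Tnnc2, the troponin C genes, were higher by 0.54, 0.24 and 0.22, and 1 of 5 probe sets of Myh1 had the opposite sign. Myod1, the master regulator of the skeletal lineage, was lower by -0.70 ± 0.19 at levels of 4.12 in deficient and 4.82 in excess medium, near background. In the fits that left out an array, the count of 7 lay between 4 (without deficient replicate 2 or 5, or without excess replicate 1 or 4) and 8 (without excess replicate 6). It was 4 after centring on the array median and 3, with 0 lower, when the 8 arrays alone were fitted. Of all 9093 genes, 241, 209, 218 and 282 were called in the fits that left out an array and held 4. Without excess replicate 6 it was 611, after centring 332 and with the 8 arrays alone 198. Myod1 lost its call without deficient replicate 2 or 6 or excess replicate 1 or 6. Myh1, Tnnc1, Tnnc2, Tagln and Myod1 were named after their values were seen.

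**Figure D4:**
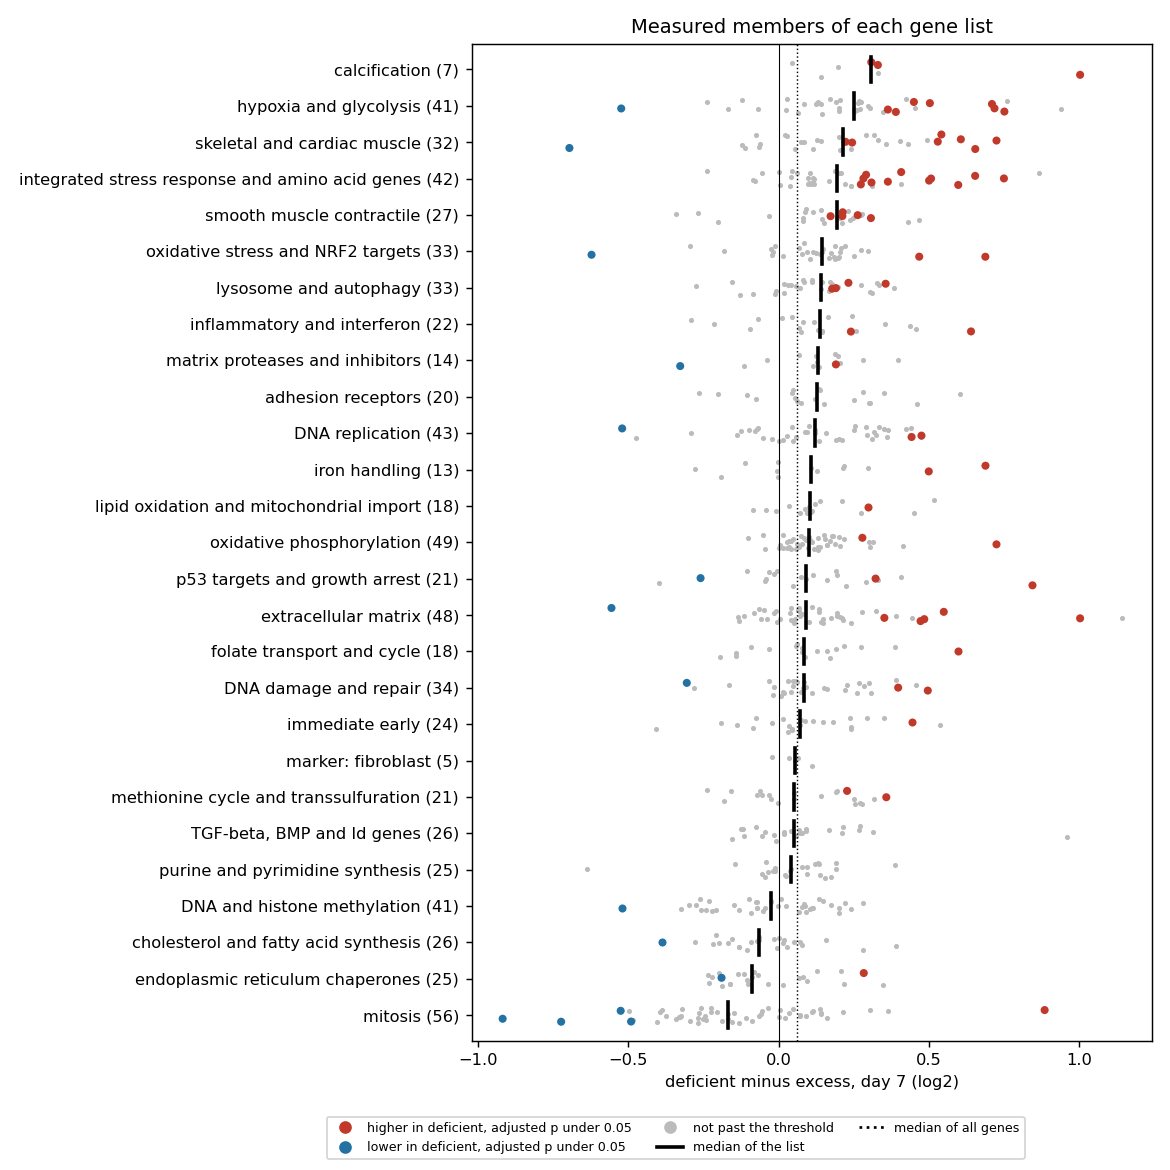
Difference between deficient and excess medium (log2) of each measured member of 27 gene lists, with black bars for list medians, red and blue points for members past the threshold and a dotted line for the median of all genes, 0.06. The calcification, hypoxia, muscle and stress response lists have the highest medians and mitosis the lowest, at -0.17.

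Of 48 measured genes of the extracellular matrix 5 were higher and 1 lower, which is 12.5% against 5.00% of all genes, while the median of 0.09 was near the 0.06 of all genes. Postn, periostin, read 13.35, 13.32, 13.41 and 13.38 in deficient arrays, against 12.86, 13.15, 13.01 and 13.05 in excess arrays. It is among the most abundant messages on these arrays, and its difference of 0.35 ± 0.05 had an adjusted p of 2.5e-05. Nid2, a basement membrane nidogen, read 9.29, 9.57, 9.41 and 9.43 in deficient arrays, against 8.58, 8.92, 8.94 and 9.05 in excess arrays, and was higher by 0.55 ± 0.10 (adjusted p = 0.00089). Lama4, a laminin chain, differed by 0.48 ± 0.12, with an adjusted p of 0.083 without excess replicate 1. The 1 lower gene was Col11a1, a fibrillar collagen chain, by -0.56 ± 0.17, and Tnc, tenascin C, was higher by 0.47 ± 0.14; both lost their calls in 6 of the 8 fits that left out an array. Eln, elastin, had a larger difference than any called gene and did not pass. It read 8.30, 7.76, 7.63 and 7.96 in deficient arrays, against 6.92, 7.31, 7.37 and 5.50 in excess arrays, so the groups did not overlap, but excess replicate 6 was far below the rest, and the adjusted p was 0.077 for 1.14 ± 0.39. Col11a1, Tnc and Eln were named after their values were seen.

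The calcification list had 7 measured members, 3 of them higher and 0 lower, which is 42.9% against 5.00% of all genes, and the median was 0.31 against 0.06. The count was 1 when the 8 arrays alone were fitted or after centring on the array median, where 198 and 332 of all 9093 genes were called. Beside Mgp the 3 higher genes were Slc20a1, a phosphate transporter, by 0.33 ± 0.09, and Enpp1, which makes the mineralization inhibitor pyrophosphate, by 0.31 ± 0.09. Mgp and Enpp1 encode inhibitors and Slc20a1 a carrier of the mineral's phosphate, so the 3 do not share a direction of action. Enpp1 lost its call in 7 of 8 and Slc20a1 in 4 of 8 fits that left out an array, with highest adjusted p-values of 0.16 and 0.12, both without excess replicate 1.

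Mitosis genes were the list with the lowest median, -0.17 against 0.06 for all genes. Of 56 measured, 4 were lower and 1, Dsn1, was higher, which is 8.93% against 5.00% of all genes called in either direction. Pttg1, securin, which holds separase until anaphase, read 8.39, 8.36, 8.43 and 8.49 in deficient arrays, against 8.93, 8.92, 9.27 and 9.46 in excess arrays. The deficient arrays lay close together and below every excess array, and the difference was -0.72 ± 0.15 (1.65-fold lower, adjusted p = 0.0037). Ncapd2, a condensin subunit, read 9.80, 9.67, 9.70 and 9.64 in deficient arrays, against 10.15, 10.16, 10.30 and 10.16 in excess arrays, and fell by 0.49 ± 0.12 (adjusted p = 0.012). Kif2c, a kinesin that depolymerizes spindle microtubules, fell by 0.53 ± 0.13 and Knl1, the kinetochore scaffold, by 0.92 ± 0.25. Knl1 overlapped between the groups (6.55 to 7.34 in deficient and 7.11 to 8.55 in excess arrays), was named after its values were seen and lost its call in 4 of 8 fits that left out an array. Dsn1 and Knl1, subunits of the same outer kinetochore network, differed in opposite directions. The lower count was 2 without deficient replicate 5, 5 without excess replicate 6 and 8 after centring on the array median. Of all 9093 genes, 44, 104 and 179 were lower in these fits.

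Replication and repair genes were called at shares not far from the 5.00% of all genes. Of 43 replication genes 2 were higher and 1 lower (6.98%), with a median of 0.12 against 0.06. Fen1, the flap endonuclease, and Pole, the leading strand polymerase, were higher by 0.44 ± 0.12 and 0.48 ± 0.14, and Uhrf1, which keeps DNA methylation at replication forks, was lower by -0.52 ± 0.14. Of 34 repair genes 2 were higher and 1 lower (8.82%): H2ax, the histone marked at breaks, by 0.50 ± 0.15, Brca2, of homologous recombination, by 0.40 ± 0.10, and Parp2, a poly(ADP-ribose) polymerase, by -0.31 ± 0.09. Each of these 6 genes lost its call in at least 2 of the 8 fits that left out an array, and H2ax, with 1 of 2 probe sets of the opposite sign, lost it with the beta-actin covariate. Uhrf1 was also the 1 called gene of 41 for DNA and histone methylation (2.44%). Among p53 targets and growth arrest genes, 3 of 21 (14.3%) were called: 2 were higher (Gadd45a and Sertad1, a cyclin-dependent kinase regulator, by 0.32 ± 0.10) and 1 lower (Cdkn1b, the inhibitor p27, by -0.26 ± 0.07). Sertad1 lost its call in 6 and Cdkn1b in 2 of the 8 fits that left out an array. The higher count was 1 in 5 of these fits (without deficient replicate 2, 5 or 6, or without excess replicate 1 or 4). Of all 9093 genes, 192, 165, 193, 174 and 220 were higher there.

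Of 13 measured genes of iron handling, 1 of uptake and 1 of export were higher and 0 lower, which is 15.4% against 5.00% of all genes, and the median was 0.11 against 0.06. Tfrc, the transferrin receptor, read 10.12, 10.42, 10.24 and 9.94 in deficient arrays, against 9.43, 9.43, 9.35 and 9.76 in excess arrays, a difference of 0.69 ± 0.10 (1.61-fold, adjusted p = 6.4e-05). Slc40a1, the iron exporter ferroportin, read 8.28, 8.40, 8.45 and 8.17 in deficient arrays, against 7.64, 7.70, 7.82 and 8.14 in excess arrays. It differed by 0.50 ± 0.11 (adjusted p = 0.005), with excess replicate 6 close to the deficient arrays, and its adjusted p was 0.056 when the 8 arrays alone were fitted. Other members of uptake and export did not pass: Slc11a2, an iron importer, differed by 0.22 ± 0.11 (adjusted p = 0.22), Steap3, an iron reductase, by 0.21 ± 0.13 (adjusted p = 0.35), Heph, the ferroxidase hephaestin, by 0.11 ± 0.09 (adjusted p = 0.49), and Slc39a14, a metal importer, by -0.11 ± 0.10 (adjusted p = 0.56). In all, 6 of the 13 genes lay below 0. Slc11a2, Steap3, Heph and Slc39a14 were named after their values were seen.

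In 5 further lists between 1 and 4 genes passed. Of 33 oxidative stress genes 2 were higher and 1 lower (9.09%, against 5.00% of all genes). Mgst3, a microsomal glutathione transferase, was higher by 0.69 ± 0.11 (adjusted p = 0.00011) and Srxn1, which repairs peroxiredoxins, by 0.47 ± 0.11. The other probe set of Srxn1 had the opposite sign. Txnip, the inhibitor of thioredoxin and of glucose uptake, read 5.02, 5.29, 5.38 and 5.52 in deficient arrays, against 5.81, 5.58, 5.94 and 6.38 in excess arrays. It was lower by -0.62 ± 0.16 (adjusted p = 0.019), and lost its call without deficient replicate 1 or without excess replicate 6, where the adjusted p was 0.073. Casp4, an inflammatory caspase, was higher by 0.64 ± 0.12 and Ifi27, an interferon-induced gene, by 0.24 ± 0.07, of 22 genes (9.09%). Lysosome and autophagy genes had 4 of 33 (12.1%) higher, among them Ctsa, a carboxypeptidase of the lysosome, by 0.36 ± 0.09, and 0 lower. Without excess replicate 1 the list held 0 calls in limma, in a fit that called 218 of all 9093 genes. Of 26 sterol and fatty acid synthesis genes 0 were higher and 1 was lower (3.85%). Insig1, the sterol sensor that holds back SREBP, was lower by -0.39 ± 0.09 (adjusted p = 0.01). Among 25 chaperones of the endoplasmic reticulum 1 was lower and 1 higher (8%). Hspa5, the main chaperone of the unfolded protein response, was lower by -0.19 ± 0.05 and Derl1, of protein export for degradation, higher by 0.28 ± 0.09. Both calls were lost without any 1 of at least 6 arrays.

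Several lists gave few or no calls. Oxidative phosphorylation had 2 of 49 (4.08%, near the 5.00% of all genes) higher, Cox6a2 and Ndufs3, a subunit of complex I, by 0.28 ± 0.08, and lipid oxidation 1 of 18 (5.56%), Plin2, a coat protein of lipid droplets, by 0.30 ± 0.09. Ndufs3 lost its call in 6 and Plin2 in 5 of the 8 fits that left out an array. Lipid oxidation had 0 calls in limma without deficient replicate 2 or 6 or excess replicate 1, 3 or 4, although published counts over all lists are smaller there too: these fits called 241, 236, 218, 263 and 282 of all 9093 genes. Immediate early genes had 1 of 24 (4.17%), Dusp6, a phosphatase of ERK, by 0.44 ± 0.12. Matrix proteases had Ctsl, a cathepsin, higher by 0.19 ± 0.05 and Plat, the tissue plasminogen activator, lower by -0.33 ± 0.08, of 14 genes (14.3%). Ctsl lost its call in 6 of these 8 fits, and Plat and Dusp6 in 2 each. Adhesion receptors and TGF-beta, BMP and Id genes had 0 of 20 and 0 of 26 in limma; their members with the smallest p were Cdh13, by 0.60 ± 0.21 (adjusted p = 0.079), and Bmp7, by 0.27 ± 0.09 (adjusted p = 0.077). In all, 73 of the 455 called genes belonged to at least 1 of 31 lists.

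The mean of the sufficient arrays lay between the deficient and excess means for 404 of the 455 called genes, against 46.5% of all genes. It lay beyond the deficient mean for 50 called genes and beyond the excess mean for 1. The sufficient arrays entered the choice of genes only through the filter, the choice of probe set and the shared estimate of spread. The comparisons of deficient and of excess with sufficient medium share the sufficient arrays, so an error in the sufficient mean moves both. Each also shares its deficient or excess arrays with the difference by which the genes were chosen. Among the 367 genes higher in deficient than in excess medium, the median of deficient minus sufficient was 0.10 and that of excess minus sufficient -0.28, against -0.005 and -0.06 over all genes. Among the 88 lower genes the medians were -0.16 and 0.26. Slc2a1 differed from sufficient medium by 0.08 ± 0.11 in deficient and by -0.67 ± 0.11 in excess medium, Bnip3 by 0.03 ± 0.10 and -0.69 ± 0.10, and Tfrc by 0.14 ± 0.10 and -0.55 ± 0.10. Cox6a2 differed by -0.11 ± 0.11 in deficient and by -0.83 ± 0.11 in excess medium. In these genes the excess arrays were the ones away from sufficient medium. Other genes were spread more evenly: Mgp by 0.47 ± 0.13 in deficient and -0.53 ± 0.13 in excess medium, Chac1 by 0.37 ± 0.14 and -0.38 ± 0.14, and Dsn1 by 0.53 ± 0.11 and -0.36 ± 0.11.

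The same 2 media at days 14 and 21, on other arrays, showed which differences of day 7 were present later. Of the 455 genes, 371 had the same sign at day 14 and 345 at day 21. Past the threshold were 258 with the same and 27 with the opposite sign at day 14, and 265 and 45 at day 21. These counts stand against 3664 and 4626 of all 9093 genes past the threshold at days 14 and 21, so many genes of any kind were called later. Across all genes the day 7 differences correlated at 0.39 with those of day 14 and at 0.27 with those of day 21. The share of all genes with the same sign was not counted. The difference itself changed between day 7 and day 14 for 1509 genes (16.6%) and between day 7 and day 21 for 2843 genes (31.3%), with 143 and 218 of the 455 among them. By direction these were 337 higher (3.71%) and 1172 lower (12.9%) at day 14, or 694 and 651 after centring on the array median and 447 and 879 after quantile normalization. At day 21 they were 953 higher (10.5%) and 1890 lower (20.8%), or 1415 and 1306 after centring. The 455 genes were chosen by their day 7 difference, which enters this test, so a smaller difference later is favoured among them.

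Several stress and growth genes differed more at the later days. Trib3 differed by 0.65 ± 0.15, 2.44 ± 0.13 and 2.42 ± 0.13 at days 7, 14 and 21, Ddit3 by 0.50 ± 0.12, 2.17 ± 0.11 and 2.21 ± 0.11, and Cox6a2 by 0.73 ± 0.11, 2.35 ± 0.10 and 2.24 ± 0.10. Txnip differed by -0.62 ± 0.16, -4.11 ± 0.14 and -3.17 ± 0.14, and Pttg1 by -0.72 ± 0.15, -2.56 ± 0.13 and -1.86 ± 0.13. The mitosis list had medians of -0.17, -1.28 and -1.22, and the integrated stress response list 0.20, 0.39 and 0.32. Over all genes the medians were 0.06, -0.03 and -0.04. The median absolute difference of all genes also rose, from 0.13 at day 7 to 0.19 and 0.24 at days 14 and 21.

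Other genes differed at day 7 and less, or the other way, later. Mgp differed by 1.00 ± 0.14 at day 7 and by -1.25 ± 0.13 and -1.12 ± 0.13 at days 14 and 21. Dsn1 differed by 0.89 ± 0.11 at day 7, 0.01 ± 0.10 at day 14 and -0.29 ± 0.10 at day 21, Nid2 by 0.55 ± 0.10, -0.13 ± 0.09 and -0.11 ± 0.09, and Mgst3 by 0.69 ± 0.11, 0.15 ± 0.10 and -0.05 ± 0.10. For Mgp, Dsn1, Nid2 and Mgst3 the change of the difference passed the threshold at both later days, with adjusted p-values between 2.2e-11 and 0.007 in limma. These genes were named for their day 7 differences, which enter this test, so the choice favours a smaller difference later. Slc2a1 differed by 0.75 ± 0.12, 0.88 ± 0.11 and 0.63 ± 0.11 and Cyp1a1 by 0.87 ± 0.12, 0.77 ± 0.11 and 0.78 ± 0.11, and for neither did the change of the difference pass.

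**Figure D5:**
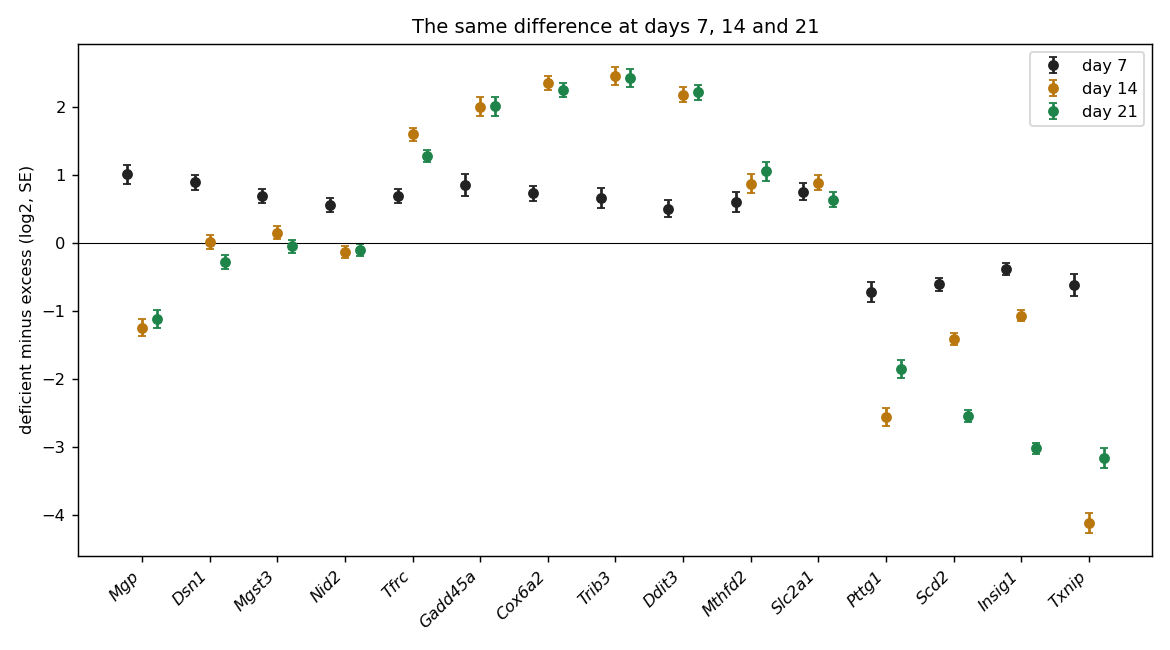
Difference between deficient and excess medium (log2, with bars for the SE) of 15 genes at days 7, 14 and 21, from 8, 10 and 10 arrays. Mgp changes sign after day 7, Dsn1, Mgst3 and Nid2 lie near 0 at day 14, and Trib3, Ddit3, Cox6a2, Pttg1, Insig1 and Txnip lie farther from 0 at days 14 and 21 than at day 7.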

How the data were processed

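The deposited table holds log2 expression values for 31099 probe sets, made by the authors with GCRMA, per the submitters' processing notes, which also name limma and give no version. GCRMA corrects background by probe sequence, normalizes by quantiles and summarizes probes, so low values are close to background and folds against them are inexact. The number of arrays limits the precision. Values lay between 0.84 and 15.0, and array medians between 3.66 and 3.72. The platform annotation gave 1 gene symbol to 20826 probe sets, several to 436 and none to 9837; probe sets with several or none and 57 control probe sets were left out. For a gene with several probe sets the one of highest mean over the 43 arrays was used, and 9093 of 14217 genes with log2 above 4 in at least 4 arrays were tested.

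One linear model of the 9 group means was fitted to all 43 arrays in limma 3.58.1 under R 4.3.3 (34 residual and 4.12 prior degrees of freedom), with two-sided tests and Benjamini-Hochberg adjustment over the genes tested. Errors of differences are standard errors of that model. On simulated data of this comparison with 9093 genes, 65% of 100 changes of 0.5 and 98% of 100 changes of 1 (log2) were recovered, with 8 false calls. The simulation drew independent normal noise for each gene and held no array that stands apart. It therefore does not measure false calls in the real arrays. Changes between days were tested as interactions.

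The members and the gene lists were chosen with earlier results of these data known. Genes were named by a rule: the 12 highest and 12 lowest called differences without overlap between groups; up to 4 called members of each list by t, or the member with the smallest p where none passed; a fixed set of genes of interest (folate genes, Txnip, Ddit3, Trib3, Cyp1a1); and the 3 highest and lowest interactions among these. Promoters came from RefSeq (GRCr8). Alternatives covered filters, probe set summaries, fits to fewer arrays, scaling, array series, weights, the replicate number as a block, the beta-actin measure and leaving out each array. Plots used Python 3.11.15 with matplotlib 3.10.9.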

Additional observations from a re-analysis of the deposited data

Results flagged for a closer look

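Single arrays far from the rest of their group were found in 19 of 258 groups of values (7.36%) for named genes at day 7, where chance gives about 1 in 20 groups. In deficient arrays Mgp was low at 5.35 in 1 array (the others 5.79 to 5.82), Hira at 7.37 (8.24 to 8.33), Sik1 at 4.35 (4.68 to 4.72), Slc3a2 at 11.07 (11.25 to 11.27), Atp2a1 at 4.37 (4.55 to 4.57) and Ctsa at 11.38 (11.71 to 11.76). High in 1 deficient array were Chac2 at 8.89 (the others at 8.58), Ndufs3 at 10.35 (10.19 to 10.21), Plat at 10.07 (9.77 to 9.82) and Vwf at 4.12 (3.87 to 3.88). In excess arrays Ncapd2 was high at 10.30 (10.15 to 10.16), Cdkn1b at 11.76 (11.66 to 11.67) and Npc2 at 12.76 (12.68 to 12.69). In sufficient arrays Mgp was low at 4.80 (5.25 to 5.38), Ncapd2 at 9.43 (9.78 to 9.89), Pole at 8.18 (8.61 to 8.74) and Cdh13 at 9.08 (9.88 to 10.04), while Scd2 was high at 7.65 (7.44 to 7.47) and Cdkn1b at 11.71 (11.42 to 11.50).

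The difference between deficient and excess medium itself differed between days for the following named genes, tested as an interaction in limma. Some were named for their day 7 difference, which enters this test and so favours a smaller difference later. Mgp changed by -2.25 between day 7 and day 14 and by -2.12 between day 7 and day 21, with a sign that turned (1.00, -1.25 and -1.12 at days 7, 14 and 21). Txnip changed by -3.49 and -2.54, Cox6a2 by 1.62 and 1.52, Trib3 by 1.79 and 1.77, and Ddit3 by 1.67 and 1.71, each for day 14 and then day 21. Pttg1 changed by -1.84 at day 14 and Insig1 by -2.63 at day 21. Among folate genes Mthfd1 changed by -0.38 at both days (adjusted p = 0.0073 and 0.0034), Tyms by -1.01 at day 21 (adjusted p = 0.00036), Folr1, near background, by 0.66 at day 21 (adjusted p = 0.0026) and Mtrr by -0.40 at day 21 (adjusted p = 0.048).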

How the results depend on the processing

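The number of called genes at day 7, 455, was within 1.5 times of itself in 9 of the planned settings that kept all 8 arrays. It was 198 with the 8 arrays alone and 139 with the 13 arrays of day 7 alone, where fewer arrays estimate the spread, 758 in serials up to 45, which leave out excess replicate 6, and 1649 with array weights. With the replicate number as a block it was 295, and 18 of the 72 called named genes lost their calls. The groups share only numbers 1 and 6, whose deviations correlated at 0.24 and -0.04, so the numbers were not taken as pairs. Leaving out 1 array gave between 209 (without deficient replicate 5) and 611 (without excess replicate 6), with 593 without deficient replicate 1, 241 without deficient replicate 2, 236 without deficient replicate 6, 218 without excess replicate 1, 263 without excess replicate 3 and 282 without excess replicate 4; the cause was not tested. Without the excess arrays of days 14 and 21 that carry the highest serials, a setting chosen after seeing the data, it was 467. Over 23 alternatives 52 of the 455 genes kept their calls in each (40 higher and 12 lower). Of 1965 values of named genes under an alternative, 0 turned into a call of the opposite direction, 333 lost a call and 10 gained one. A change of sign in a small difference without a call is not counted here. Of the 72 called named genes, 22 kept their calls in each alternative. Of 621 list medians under an alternative, 69 moved by more than the spread between replicates.

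The count of genes whose difference changed between day 7 and day 14 was 1509, and 2626 with array weights. It was 1079 with the beta-actin covariate and 1067 without the excess arrays of days 14 and 21 that carry the highest serials. The count for day 21, 2843, was 3510 with array weights, 2254 with the beta-actin covariate and 2595 without those arrays. Leaving out 1 array of day 7 gave 1176 to 1760 for day 14 and 2566 to 2738 for day 21. A setting limited to arrays with a beta-actin ratio of at most 3 was not run, since 0 deficient and 1 excess array of day 7 met it. The cause of these shifts was not tested. The number of arrays and the background level of GCRMA values limit what could be detected among low genes.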

Other observations

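Some called genes outside the lists and the naming rule are given here as values, chosen after they were seen. Tcn2, transcobalamin, which carries vitamin B12 into cells where B12 serves methionine synthase together with folate, read 8.43, 8.43, 8.41 and 8.50 in deficient arrays, against 7.78, 8.02, 8.10 and 7.81 in excess arrays. The groups did not overlap, the difference was 0.52 ± 0.11 (1.43-fold, adjusted p = 0.0037 in limma), and the call held in all 23 alternatives. Pln, phospholamban, the regulator of the calcium pump, read 8.12, 7.92, 7.94 and 8.17 in deficient arrays, against 7.27, 7.74, 6.66 and 7.61 in excess arrays, a difference of 0.72 ± 0.15 (adjusted p = 0.0036). It also did not overlap between the groups, and its call held in all 8 fits that left out 1 array.

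Both subunits of the mitochondrial pyruvate carrier were higher in deficient medium, Mpc1 by 0.29 ± 0.08 and Mpc2 by 0.25 ± 0.07 (adjusted p = 0.032 and 0.024), and lost their calls in 5 and 4 of 8 fits that left out an array. Arrdc4, an arrestin paralogous to Txnip, was lower by -0.55 ± 0.15 (adjusted p = 0.027), and lost its call in 5 of those fits. Of the paraspeckle proteins, Sfpq was lower by -0.37 ± 0.11 and Pspc1 by -0.40 ± 0.11 (adjusted p = 0.033 and 0.034), and lost their calls in 5 and 6 of those fits.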
